A study of Drosophila melanogaster with 10 samples.

Results

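A group of 121 Drosophila genes carried only a CG number in the table, the annotation serial given to a gene that has no other name there, and had a mean nascent RNA signal at least 2 times that of mock in cells labelled Ph RNAi. The ratio was taken after adding a small constant to both means, the 10th percentile of all nascent means, so that genes close to background do not enter on a few units. These 121 were chosen from 7624 genes, of which 3430 bore a CG number, by the mock and Ph RNAi nascent means, so both means are a description here and carry no test. The other 3309 CG-numbered genes lay under the ratio, and 239 genes not listed under a CG number lay at or over it.

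The cells were ML-DmBG3-c2, a cultured fly line whose source was the nervous system of the larva, grown with insulin. The groups were cells given mock RNAi, cells given double-stranded RNA against Polyhomeotic (Ph), and cells given double-stranded RNA against Sce, with 3, 3 and 4 libraries of RNA still attached to chromatin. All groups shared the serum-poor medium of the treatment step, and per the labels most knockdowns used a mixture of 2 double-stranded RNAs for a target. The values at hand were the mean signal of each group, with no value per library, so no spread stands beside a mean and the q of the authors is the measure of replicate error. The authors' deposited table also gave ratios, p and q for total RNA of cells treated against Ph, Sce or Pc, from libraries outside the 10 of the series. Rose and fell are used below only of genes whose q was under 0.05.

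Polycomb repressive complex 1 (PRC1) is a chromatin complex first known for keeping developmental genes silent. Polycomb (Pc) reads a methyl mark on histone H3, Polyhomeotic joins complexes to each other through its SAM domain, and Sce, the fly RING1 protein, is the ubiquitin ligase for histone H2A. The complex is also found at genes that are being transcribed. Nascent RNA on chromatin reports transcription as it happens, while total RNA also depends on how long each transcript lasts.

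The targeted genes were read first, since they check the labels. In the libraries labelled Ph RNAi the nascent mean of ph-p, 1 of the 2 Ph genes, was 90923 against 18685 in mock, and that of ph-d was 57853 against 10729. In the libraries labelled Sce RNAi the Sce mean was 293193 against 2475 in mock. In the authors' deposited table Sce had q 0.377, ph-d 0.053 and ph-p 0.012 under those labels. In total RNA of cells labelled Pc RNAi the ratio of Pc itself was 21.5 with q 0.130 in the authors' deposited table. All 4 targeted genes thus had values above mock under their own labels, and whether signal from the double-stranded RNA or its template took part was not tested. Of neuronal markers, elav and Nrg of 7 listed were in the table and both lay above the median mock gene, while blood cell markers were present too, 6 of 7 in the table and 5 above that median. Of the 6 blood cell markers 5 had a lower mean in Ph RNAi than in mock, and Ppn fell by the authors' q, while their sum was 4227592 in mock, 1600658 in Ph RNAi and 4637608 in Sce RNAi. The highest, Cg25C, made up 2029895 of the mock sum and stood at 779776 in Ph RNAi. The 2 neuronal markers summed to 22012, 94481 and 26345, 3 glial markers to 54050, 121823 and 60832, and 2 neural stem cell markers to 12166, 38093 and 14108. Nrg and the glial nrv2 rose after Ph RNAi by the authors' q. The neuronal sum mostly follows Nrg, which went from 12418 to 83623. In the authors' deposited table elav had q 0.425, with means of 9594 in mock and 10858 in Ph RNAi. Of the glial markers, moody went from 41864 to 37271 with q 0.390, and repo from 2890 to 41380 with q 0.127. The 2 muscle markers summed to 202284, 168015 and 191925, the germ line gene bam stood at 578, 269 and 1029, and 0 of 3 fat body markers were in the table. The part of such shifts in the results was not tested, and in bulk RNA fewer cells of a type and less RNA per cell cannot be told apart.

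Mock levels of the 121 genes are a description too, since the rule used them. Their median mock signal was 1737, against 4447 over all genes and 2794 over the CG-numbered genes under the ratio, and 80 of the 121 lay below the median of all genes. The range was wide. Idgf6 (CG5210), a secreted chitinase-like growth factor, stood at 23.4, and mtgo (CG42389), a fibronectin type III protein, at 548426. Mock signal was under the constant in 26 genes (the weak class), up to 10 times the constant in 58 (the middle class) and above that in 37 (the strong class). These levels and classes were not divided by gene length. Longer genes had more mock signal, with a Spearman rho of 0.63 over all matched genes. The chosen genes were also longer, with a median of 6.77 kb against 2.23 kb for the CG-numbered genes under the ratio. After a filter that asked for a mean over the 3 nascent columns above the constant, 119 of the 121 were left.

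**Figure D1:**
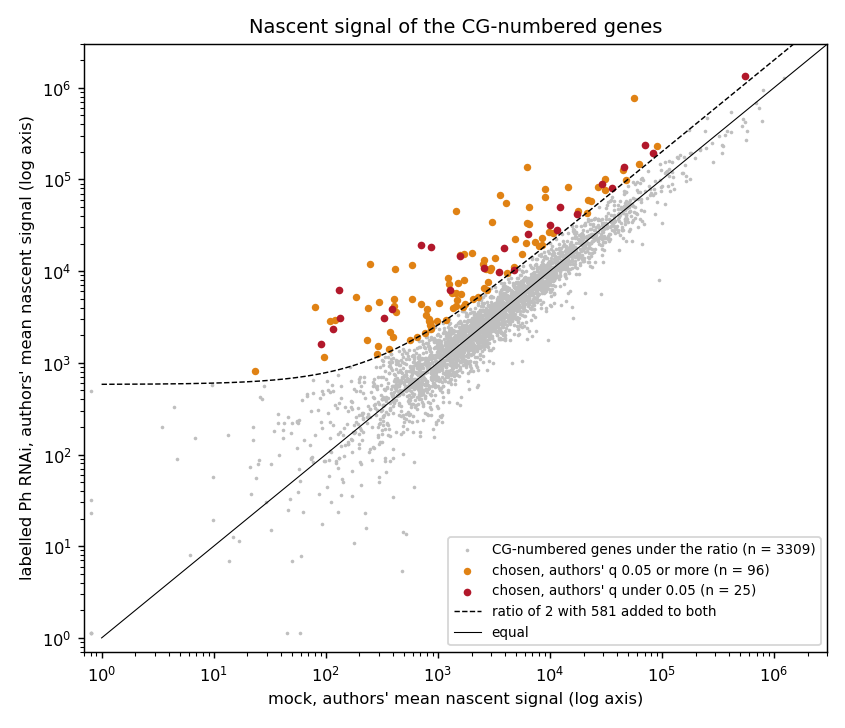
Mean nascent signal of every CG-numbered gene in mock (x) and in the libraries labelled Ph RNAi (y), in the authors' signal units on log axes. Coloured points are the 121 chosen genes, dark red for the 25 with the authors' q under 0.05, and the dashed line is the ratio of 2 with the constant added to both means. The chosen genes reach from Idgf6, with a mock mean of 23.4, to mtgo, at the upper right.

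The plain quotient of the Ph RNAi and mock means ran from 2.04 to 50.4 over the 121 genes, with a median of 4.09. With the constant added, 57 genes were under a ratio of 3, 42 were at 4 or more and 10 at 10 or more. The highest on that scale was Kah (CG17181), a zinc finger protein of the Snail family, whose mean went from 1453 to 45506. CG42741 followed with 6256 and 136941. The highest plain quotient belonged to naz (CG31235), with 80.1 in mock and 4036 after Ph RNAi. The top 10 also held Egfrap, Dtg, PLCXD and CG42390, CG15117, CG32032 and both rows of CG45263. The median plain quotient was 13.8 in the weak class, 3.94 in the middle class and 2.80 in the strong class. The rule sets this order in part, since the added constant asks for a larger plain quotient where mock is low, so nothing is read from it.

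By the q of the authors' deposited table, 25 of the 121 genes rose in nascent RNA after Ph RNAi and 0 fell, beside 1.69% and 0.787% of all genes tested. This is the contrast that chose them, so nothing is read from that count. Unadjusted p was under 0.05 in 100 of the 121. Tmtc1 and raskol stood at the edge, listed at q 0.05 exactly and not counted. Among the 25, CG15117 went from 706 to 19039, CG16700 from 132 to 6286, CG32032 from 876 to 18116 and CG14879 from 134 to 3051. At the ratio itself the genes just inside and just outside differed little. CG6511, CG17839, CG4733, CG13124 and CG10973 were in with 2.01 to 2.02, and CG11248, Vps60 (CG6259), CG13004, LRR (CG1399) and Rilpl (CG11448) were out with 1.98 to 1.99.

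Total RNA came from other libraries and had no part in choosing the genes. After Ph RNAi, 28 of the 121 genes rose and 0 fell by the q of the authors' deposited table, which is 23.1% beside 3.52% of all genes for a rise and 0.367% for a fall. The median ratio over the 121 was 2.63, against 1.05 over all genes. The ratio was above 1 in 104 of the 121 and at 2 or more in 74, or 61.2%, against 6.6% of all genes, as the authors' deposited table lists them. Of the 3309 CG-numbered genes under the nascent ratio, 54 rose, or 1.63%. Of the 239 genes without a CG number at or over it 97 rose, or 40.6%. The difference between genes with and without a CG number was not tested.

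Some of the steepest rises in total RNA after Ph RNAi had modest nascent changes. In the authors' deposited table twz (CG10440) stood at 69.0 times mock with q 0.007, while its nascent mean went from 7375 to 20671. CG17839, close to the nascent limit with 1180 and 2955, stood at 58.8 in total RNA with q 0.023 in the authors' deposited table. Egfrap (CG33993), an adaptor protein of the Egf receptor, had high ratios on both measures. Its nascent mean went from 249 to 11995, and the total RNA ratio of the authors' deposited table was 49.3 with q 0.003. CG42741, bdl, Pura, Rchy1, Cph, prd1 and Dtg followed with ratios from 43.9 to 12.2 in the authors' deposited table. Drgx (CG34340) shows how far a ratio and its q can part, with 1658 times mock and q 0.206 in the authors' deposited table.

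Across the 121 genes the nascent ratio with the constant added and the total RNA ratio after Ph RNAi had a Spearman rho of 0.52. That is a description, since the points share their libraries and this nascent ratio is the one that chose the genes. Of the 25 genes called in nascent RNA, 7 also rose in total RNA, which is 28% of the 25 and 25% of the 28. Over all 121 genes, 23.1% rose in total RNA and 20.7% in nascent RNA. The overlap is near those shares, so nothing is read from it. The 7 included CG15117, Pura, wake and Ids. The plot of nascent against total RNA shows the wide scatter of weak nascent changes, where twz and CG17839 sit beside genes with less total RNA than mock.

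**Figure D2:**
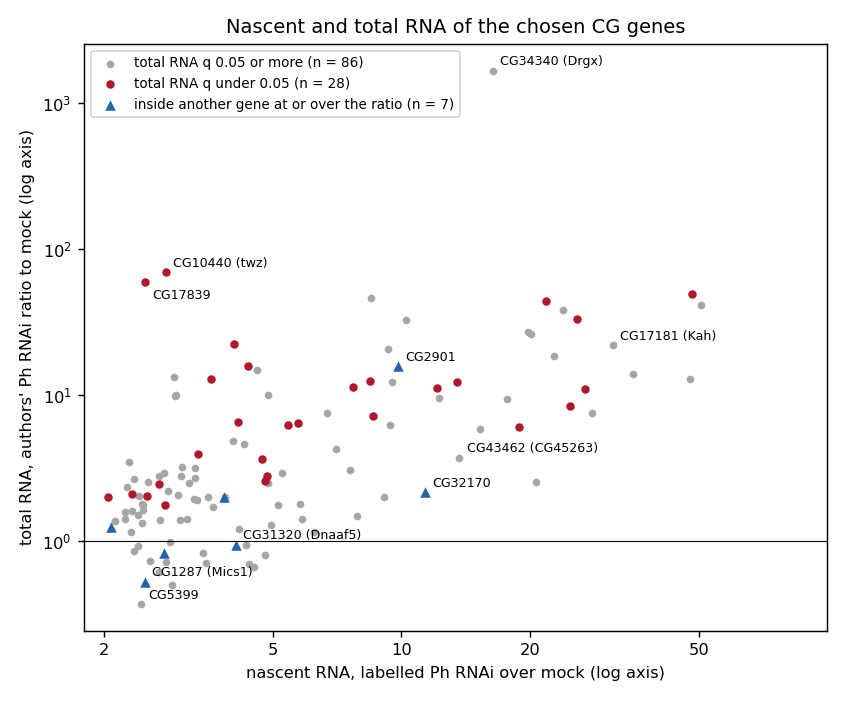
Nascent quotient of the libraries labelled Ph RNAi over mock (x) against the authors' total RNA ratio after Ph RNAi (y) for the 121 genes, on log axes, 1 point a gene. Red points are the 28 genes with q under 0.05 in total RNA, blue triangles the 7 genes that lie largely inside another gene at or over the ratio, and the horizontal line marks a ratio of 1. Drgx is highest at 1658 and CG5399 lowest at 0.368.

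After Pc RNAi, 33 of the 121 genes rose in total RNA and 0 fell by the q of the authors' deposited table. That is 27.3%, beside 3.04% of all genes for a rise and 0.144% for a fall. The median ratio was 1.97 against 1.03 over all genes. Of the CG-numbered genes under the nascent ratio 1.66% rose, and of the genes without a CG number at or over it 32.2%. Drgx, a paired-like homeodomain protein, had the highest ratio, 187 with q listed as 0.000 in the authors' deposited table. Egfrap had 59.2 with q 0.006, and CG34136 27.5 with q listed as 0.000, in the authors' deposited table. CG31462, twz, CG2901, CG17839 and prd1 stood between 13.6 and 21.0 in the authors' deposited table, all with q under 0.05. The Ph and Pc total RNA columns are taken to share their mock libraries, so they are set side by side only.

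Genes with weak and genes with strong mock signal were both among those that rose in total RNA. By the q of the authors' deposited table, 6 of the 26 genes of the weak class rose after Ph RNAi and 11 after Pc RNAi, which is 23.1% and 42.3%. Over all genes of that class the shares were 7.57% and 7.31%. Among the 37 genes of the strong class, 11 rose after Ph RNAi and 10 after Pc RNAi by the authors' deposited table, or 29.7% and 27.0%, against 3.89% and 2.73% of all genes of the class. In the middle class of 58 genes the counts were 11 and 12, or 19.0% and 20.7%, against 2.23% and 2.38%.

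**Figure D3:**
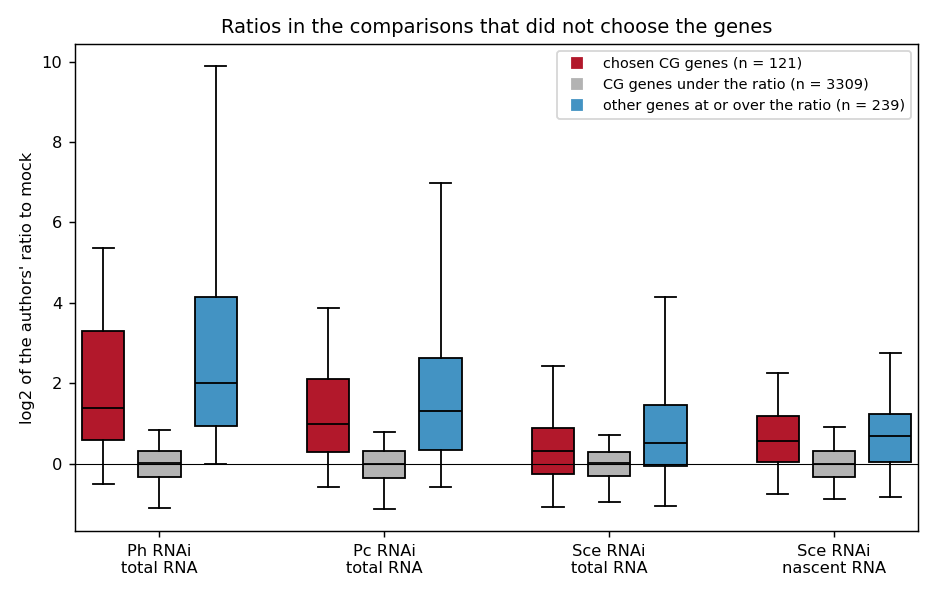
Log2 of the authors' ratio to mock in the 4 comparisons that did not choose the genes. Shown are the 121 chosen genes, the 3309 CG-numbered genes under the ratio and the 239 genes without a CG number at or over it. Boxes span the quartiles with a line at the median and whiskers reach the 5th and 95th percentiles over genes. The chosen genes have medians of 1.39 and 0.98 after Ph and Pc RNAi in total RNA, and 0.32 and 0.56 after Sce RNAi in total and nascent RNA.

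Sce RNAi gave few calls in these genes. In nascent RNA 0 of the 121 rose and 1 fell by the q of the authors' deposited table, beside 0.0656% and 0.0525% of all genes. With p in place of q in the authors' deposited table, under the same 0.05, 34 were higher and 5 lower, beside 352 and 403 of all genes. The gene that fell was CG42390, with a mean of 419 in mock, 169 in Sce RNAi and 10422 in Ph RNAi, and q listed as 0.000 in the authors' deposited table for Sce. In total RNA 1 gene rose and 0 fell after Sce RNAi by the authors' deposited table, beside 0.236% and 0.0131% of all genes, with 22 higher and 2 lower at an unadjusted p under 0.05, beside 707 and 175 of all genes. That gene was Egfrap, at 13.8 times mock with q 0.001 in the authors' deposited table.

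Most nascent Sce means lay above mock, short of the threshold. The median quotient was 1.48 against 1.01 over all genes, and 36 of the 121 genes were at 2 or more and 28 under 1. With the constant added to both means the median log2 ratio was 0.36 against 0.01 over all genes, and with 10 times the constant it was 0.14. With the constant, 24 of the 121 were at 2 or more, or 19.8%, against 111 of all genes, or 1.46%. These means share the mock libraries with the choice of the genes, so a low mock mean raises both quotients. Egfrap had 4701 against 249 in mock. CG10508 had 14236 against 1711, close to its Ph RNAi mean of 15550, with q 0.122 for Sce in the authors' deposited table. CG12065 had 70850 against 29273, also near its Ph RNAi mean of 89326. In 5 genes the Sce mean lay above the Ph mean, namely side-V, CG1648, CG5399, CG13144 and HP1D3csd. Other genes steep after Ph RNAi stayed near mock or under it in the Sce column. CG15117 had 653 against 706, CG42741 5130 against 6256, and pippin 51.9 against 407.

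**Figure D4:**
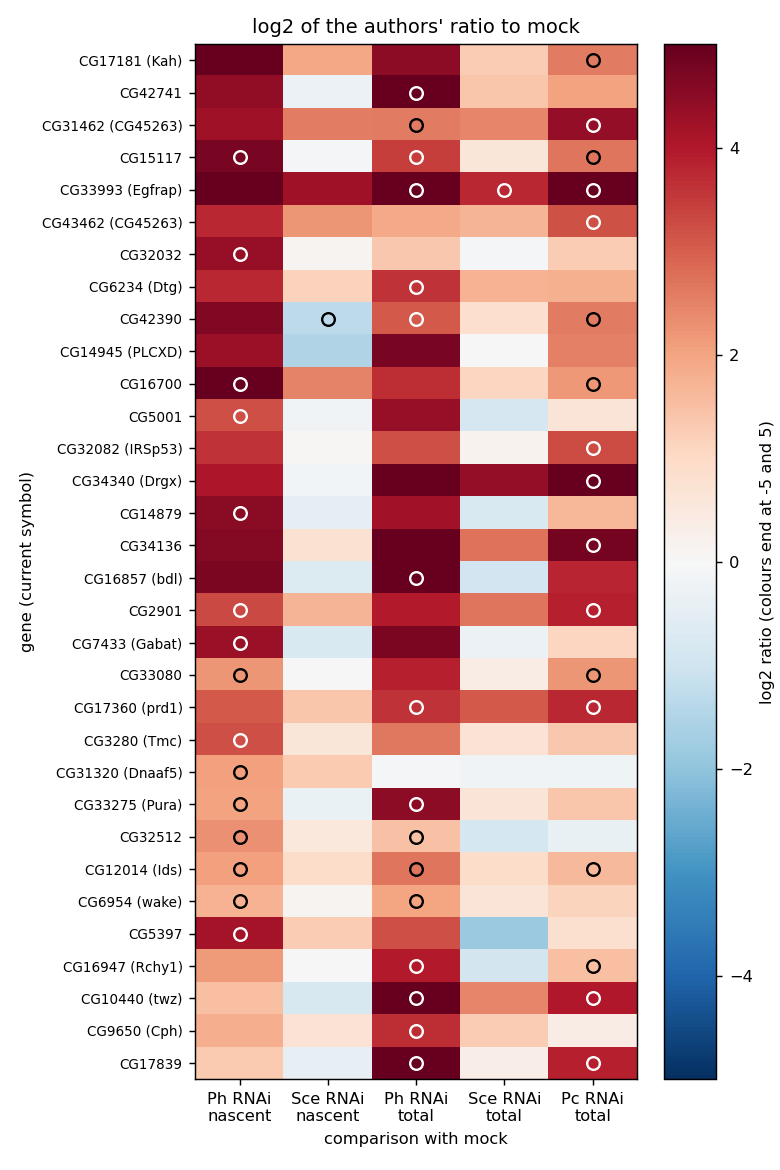
Log2 of the authors' ratio to mock for 32 of the chosen genes in the 5 comparisons, ordered by the nascent Ph RNAi ratio with the constant added, with current symbols in brackets. Colours end at 5 and -5, and a circle marks the authors' q under 0.05. Most circles stand in the Ph and Pc columns, and in the Sce columns they mark CG42390 in nascent and Egfrap in total RNA.

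Although all 121 genes carry a CG number in the table, 46 have a given name in current annotation, or 38.0%, against 33.6% of the CG-numbered genes under the ratio. The 121 were sorted into roles after their values had been seen, so the groups below describe and support nothing. Their counts stand beside rises in total RNA of 23.1% of the 121 after Ph RNAi and 27.3% after Pc RNAi. Over all genes those shares were 3.52% and 3.04%. In nascent RNA after Ph RNAi the shares were 20.7% of the 121 and 1.69% of all genes. Differences between a role group and the 121 were not tested.

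Transcription and nuclear regulators numbered 6, of which 2 rose in total RNA after Ph RNAi and 3 after Pc RNAi by the authors' deposited table. Kah had 21.9 times mock with q 0.195 after Ph RNAi and rose 6.12-fold with q 0.007 after Pc RNAi in the authors' deposited table. mamo (CG11071), a BTB zinc finger protein, went from 1724 to 8092 in nascent RNA, with 6308 in Sce RNAi, and its total RNA ratio of 3.63 had q 0.007 in the authors' deposited table. Cph (CG9650), a zinc finger protein related to vertebrate BCL11 proteins, rose 12.9-fold in total RNA after Ph RNAi with q 0.009 in the authors' deposited table. atos (CG9005) was in the strong class, at 30834 in mock against 101259 after Ph RNAi. HP1D3csd (CG14193), an HP1-related chromo shadow protein, had 287, 1256 and 1332 in mock, Ph RNAi and Sce RNAi, and a total RNA ratio of 0.694 with q 0.297 in the authors' deposited table.

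Cell surface and secreted proteins numbered 5, of which 1 rose in total RNA after Ph RNAi and 0 after Pc RNAi. The gene that rose was bdl (CG16857), an immunoglobulin superfamily protein. Its nascent mean went from 110 to 2826, and its total RNA ratio after Ph RNAi was 33.0 with q 0.014 in the authors' deposited table. side-V (CG34371), of the Sidestep family of immunoglobulin proteins that guide motor axons, had 1335, 5703 and 8156 in mock, Ph RNAi and Sce RNAi. The leucine-rich repeat protein atk (CG5195) went from 585 to 4962, and its total RNA ratio of 46.2 had q 0.155 in the authors' deposited table. bark (CG3921), a large membrane protein of epithelial junctions, had nascent means of 4913 and 22143 with q 0.193, and a total RNA ratio of 0.661 with q 0.285, in the authors' deposited table.

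Transporters and channels numbered 6, with 2 rises in nascent RNA after Ph RNAi and 2 each in total RNA after Ph and Pc RNAi by the authors' deposited table. Tmc (CG3280), a transmembrane channel-like protein used in mechanical sensing, went from 330 to 3103 with q 0.017 in the authors' deposited table. subdued (CG16718), of the anoctamin chloride channel family, went from 10126 to 32054 with q 0.017 in the authors' deposited table. The sugar transporter-like protein nebu (CG10960) and zyd (CG2893), an exchanger of sodium and potassium for calcium, rose 6.24-fold and 11.3-fold in total RNA after Ph RNAi in the authors' deposited table. pippin (CG4797), another sugar transporter-like protein, rose 5.37-fold after Pc RNAi with q 0.024 in the authors' deposited table.

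Metabolic and glycan enzymes numbered 7, and the total RNA ratio after Ph RNAi was above 1 in all 7, with 2 rises by the authors' deposited table. Ids (CG12014), the iduronate sulfatase that breaks down glycosaminoglycans in the lysosome, passed in 3 comparisons. Its nascent mean went from 2610 to 10774 with q 0.043, and its total RNA ratios were 6.48 with q 0.037 after Ph RNAi and 3.07 with q 0.033 after Pc RNAi in the authors' deposited table. Gabat (CG7433), the transaminase that degrades the transmitter GABA, went from 117 to 2354 with q 0.036 in the authors' deposited table. Tmtc1 (CG31690), of a family that mannosylates proteins, had 14513, 82872 and 7002 in mock, Ph RNAi and Sce RNAi and rose 6.40-fold in total RNA after Ph RNAi with q 0.034 in the authors' deposited table. LManII (CG6206), a lysosomal mannosidase, went from 2018 to 15829, and naz and PLCXD missed the threshold in every column.

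Signalling and cell cortex proteins numbered 7, and Egfrap, wake and raskol rose in total RNA after Ph RNAi. wake (CG6954), which tunes clock neurons at dusk, was in the strong class. It went from 71018 to 236913 with q 0.038, beside a total RNA ratio of 3.91 with q 0.011, in the authors' deposited table. raskol (CG42684), a Ras GTPase-activating protein, went from 90661 to 228800, and its total RNA ratio was 2.03 with q 0.025 in the authors' deposited table. IRSp53 (CG32082), a membrane-bending adaptor for actin, went from 410 to 5012 and rose 9.54-fold after Pc RNAi with q 0.023 in the authors' deposited table. Sting (CG1667), the innate immune sensor of cyclic dinucleotides, had nascent means of 4104 and 9651 and a total RNA ratio of 0.844 with q 0.499 in the authors' deposited table.

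Protein folding and membrane traffic genes also numbered 7. Their total RNA ratio after Ph RNAi was above 1 in 4 of the 7 with a median of 1.51 in the authors' deposited table, and no difference between role groups was tested. Rchy1 (CG16947), a ubiquitin ligase, went from 1030 to 4500 and rose 15.7-fold in total RNA with q 0.011 in the authors' deposited table. Orp8 (CG42668), a lipid transfer protein of the oxysterol-binding family, went from 45425 to 137800 with q 0.041, and rose 2.05-fold after Pc RNAi with q 0.019 in the authors' deposited table. Tbca (CG1890), a tubulin folding cofactor, went from 3223 to 13939, with a total RNA ratio of 0.941 and q 0.559 in the authors' deposited table. Ist1 (CG10103), of the ESCRT membrane-cutting machinery, rose in nascent RNA from 11534 to 27747 with q 0.017 in the authors' deposited table.

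Other named genes numbered 11, with 4 rises in total RNA after Ph RNAi and 3 after Pc RNAi by the authors' deposited table. Pura (CG33275) went from 6327 to 25623 with q 0.034, and its total RNA ratio of 22.2 had q 0.001 in the authors' deposited table. Dtg (CG6234), named as a target of Dpp signalling, went from 4071 to 54893 and rose 12.2-fold in total RNA with q 0.039 in the authors' deposited table. prd1 (CG17360) went from 423 to 3564, and rose 12.4-fold after Ph RNAi and 13.6-fold after Pc RNAi in total RNA, with q 0.004 and 0.002 in the authors' deposited table. mtgo had the highest mock signal of the 121, in a model of 118 kb. Its nascent mean reached 1359064 after Ph RNAi with q 0.012, and its total RNA ratio was 1.61 with q 0.081, in the authors' deposited table.

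The largest group, 68 genes, had no given name and was put in no role group here. The sorting was not exhaustive, so some of the 68 may have a known product or domain. The counts of the other role groups may then be too low. Of the 68, by the authors' deposited table, 15 rose in nascent RNA in the contrast that chose them, beside 1.69% of all genes. In total RNA 13 rose after Ph RNAi, 20 after Pc RNAi and 0 after Sce RNAi by the authors' deposited table, beside 3.52%, 3.04% and 0.236% of all genes. CG15117 rose 11.0-fold after Ph RNAi and 6.43-fold after Pc RNAi in total RNA in the authors' deposited table. CG42673 went from 9072 to 77690 and rose 7.12-fold and 5.90-fold in the same comparisons of the authors' deposited table. CG33080 went from 3923 to 18005 with q listed as 0.000, and rose 4.66-fold after Pc RNAi, in the authors' deposited table. CG7781 was in the weak class, at 95.7 in mock and 1160 after Ph RNAi, and its total RNA ratio after Ph RNAi was 11.2 with q listed as 0.000 in the authors' deposited table. CG43759 was among the strong genes, at 83399 and 194731, and rose 2.09-fold in total RNA after Ph RNAi with q 0.032 in the authors' deposited table.

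**Figure D5:**
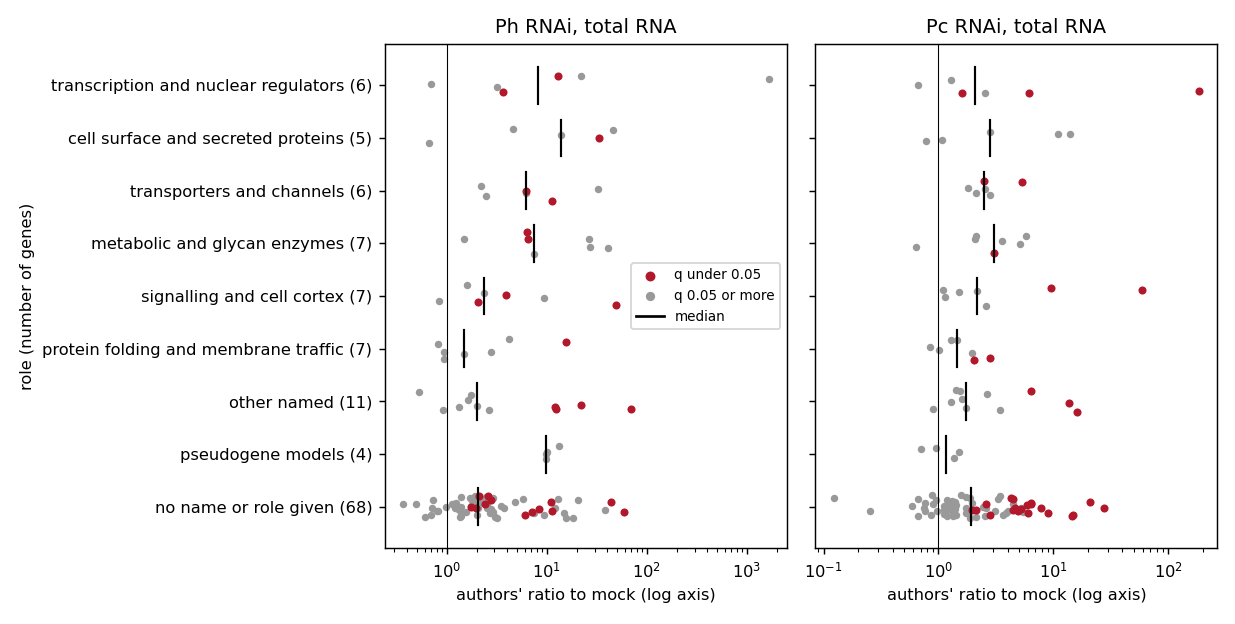
The authors' total RNA ratio to mock after Ph RNAi (left) and Pc RNAi (right) for the 121 genes by role, on log axes, 1 point a gene, with a short black line at each group's median and a thin line at 1. Red points have q under 0.05. After Ph RNAi the medians run from 1.51 in protein folding and membrane traffic to 13.8 in cell surface and secreted proteins. In that panel each group holds both red and grey points except the pseudogenes, with 0 red. After Pc RNAi the pseudogenes and the cell surface and secreted proteins hold 0 red.

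Some rows of the table do not stand for separate genes in the reference annotation (BDGP6, RefSeq Release 6), whose models may differ from those the authors counted. CG31462 and CG43462 are now both CG45263, on chromosome arm 3R. The first row went from 3616 to 68159 and the second from 55988 to 766113, with Sce RNAi means of 21524 and 255663. Both rose after Pc RNAi in total RNA, 21.0-fold and 8.98-fold with q listed as 0.000 in the authors' deposited table. CG6108 and CG6043 are now both CG44085, with 6063 and 35590 in mock and 20123 and 80013 after Ph RNAi. CG3884 is now split into CG44250 and CG44251. CG33487, CG33491, CG33496 and CG33498 are listed as pseudogenes on chromosome X. Their total RNA ratios after Ph RNAi, 9.77 to 13.3 in the authors' deposited table, lay close together with q from 0.183 to 0.196. Their sequences were not compared, and whether reads are shared among them was not tested.

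Gene length was not used to choose the 121. Of the 120 matched to 1 model, the median length was 6.77 kb, against 2.23 kb for the CG-numbered genes under the ratio, and 24, or 20.0%, were 20 kb or longer, against 4.36%, a difference that was not tested. Longer genes also have more nascent signal, with a Spearman rho of 0.63 between mock signal and length over all matched genes, and the difference in length was therefore set out by mock class. The medians were 6.14, 5.11 and 16.0 kb from the weakest class to the strongest, against 1.22, 1.87 and 5.01 kb under the ratio. The genes were spread over the large arms, with 25 on X, 27 on 2L, 22 on 2R, 23 on 3L and 23 on 3R.

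The 17 genes with a total RNA ratio under 1 after Ph RNAi in the authors' deposited table were mostly short. Of the 17, 15 had a model under 5 kb, against 30 of the 103 others with a model, and their median length was 1.79 kb against 8.14 kb. Their nascent quotients had a median of 2.87 against 4.37. None of the 17 fell by the authors' q, beside 0.367% of all genes. The lowest ratios were those of CG5399 with 0.368, CG1648 with 0.497, Mics1 with 0.524, CG10973 with 0.610 and bark with 0.661 in the authors' deposited table. CG5399 had nascent means of 2043, 5005 and 6290 in mock, Ph RNAi and Sce RNAi, and CG1648 had 1443, 4164 and 6876.

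Neighbours at or over the ratio were counted next. Another gene at or over the ratio lay within 10 kb of 33 of the 120 genes, or 27.5%, against 11.0% of the CG-numbered genes under the ratio. The 33 include the 7 genes inside a raised host described below, both rows of CG45263 and some of the pseudogenes. The chosen genes were also longer, with medians of 6.77 against 2.23 kb, so a wider stretch was searched around them. The difference was not tested. A gene of a list of classical Polycomb targets lay within 10 kb of 1, or 0.833%, against 1.06%. Of that list 43 genes were in the table, and 26 of them rose and 1 fell in total RNA after Ph RNAi by the authors' deposited table. The rises are 60.5% of the 43, beside 3.52% of all genes for a rise and 0.367% for a fall. CG10508 and CG10512 are neighbours, and the second went from 2536 to 12102 and rose 2.57-fold in total RNA with q 0.027 in the authors' deposited table. CG31689 lies beside Tmtc1 and went from 188 to 5271. CG42673 lies beside Tmc.

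In 7 genes the model lay largely inside a host gene that was itself at or over the ratio, on the same strand. Nascent and total RNA signal of the 7 could hold reads of the host, which was not tested. Of the 6 hosts, NK7.1 and mtgo rose in nascent RNA with q 0.036 and 0.012, and Lmpt, ec, CG7267 and alpha-Est9 had q 0.076, 0.076, 0.113 and 0.209 in the authors' deposited table. Dnaaf5 (CG31320), a dynein arm assembly factor, lies in NK7.1, a homeobox gene. Dnaaf5 went from 12308 to 50390 with q 0.021 while its total RNA ratio was 0.940 with q 0.520, and NK7.1 went from 47653 to 248392 with a total RNA ratio of 4.41 and q 0.007, all q and total RNA ratios from the authors' deposited table. CG31815 and CG4631 lie in mtgo, with nascent quotients of 2.77 and 2.08 beside 2.48 for mtgo, and total RNA ratios of 0.820 and 1.24 in the authors' deposited table. CG32170 lies in Lmpt, with quotients of 11.3 and 8.88, and a total RNA ratio of 2.15 with q 0.345 in the authors' deposited table. Mics1 (CG1287) lies in alpha-Est9, with 2.50 and 3.14, and CG10970 largely in the gene of CG7267, with 3.84 and 3.62. CG2901 lies in ec, with 9.79 and 2.36, and their total RNA ratios after Ph RNAi were nearly equal, 15.735 with q 0.121 for CG2901 and 15.738 with q 0.014 for ec, in the authors' deposited table. CG2901 rose 14.95-fold after Pc RNAi with q 0.033 in the authors' deposited table. Of the 7, 0 rose in total RNA after Ph RNAi by the authors' q, beside 3.52% of all genes and 23.1% of the 121. With so few genes nothing is read from that count.

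In the reference annotation the model of CG42741 lies inside that of twi, a mesoderm gene. The nascent means of twi were 101 for mock and 204 for Ph RNAi, far below the 6256 and 136941 of CG42741. Whether the twi model that the authors counted spans CG42741 is not known. Total RNA of both rose after Ph RNAi, 43.9-fold for CG42741 with q 0.049 and 30.1-fold for twi with q 0.030 in the authors' deposited table. After Sce RNAi the nascent mean of CG42741 was 5130 and that of twi 40.3.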

How the data were processed

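Per the labels' protocols, RNA was taken from the chromatin pellet of ML-DmBG3-c2 cells, rid of uncapped and polyadenylated RNA, and made into Ion Torrent libraries from its native 3' ends. The 10 libraries were grouped by title, and the labels do not say whether replicates were separate cultures, so a p-value may cover technical spread alone. SAMtools and bedtools were used, per the submitters' processing notes. Not given in the sources used here are the aligner, the build, the gene models, the strand handling and the test behind p and q.

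The deposited nascent signal is a mean per gene over each group, per the file headers; the 3 columns sum to 191793598 to 192278102, so they were scaled to a common total and a global change cannot be seen. Per the file headers, the authors also deposited a ratio, a p-value and a q-value for each comparison, with 3 decimals, so an entry of 0.000 is under 0.0005. Depth per library is unknown. Total RNA group means fill 4 more columns that belong to no sample here and were not used. Deposited nascent ratios equalled the quotients of the means within 1% plus 0.001.

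Members were genes named CG and digits with a ratio of 2 or more after adding 581, the 10th percentile of the nascent means. Plain quotients carry no pseudocount. Calls are the authors' q-values under 0.05, and no test was run. Members, lists and rules were chosen with earlier results of these data known. Genes named were the 10 highest ratios, up to 15 nascent calls, up to 10 total RNA calls a comparison and direction, the 5 highest mock means, the 5 lowest total RNA ratios, the 5 on each side of the ratio, members with another within 10 kb, and the targeted genes; further examples were picked with their values in view. Python 3.11.15, pandas 2.3.3 and numpy 2.4.6 were used, and counts were tested on simulated data. Names, lengths and overlaps came from the reference annotation; no sequence was used, so planned counts of promoter motifs and protein identities were left out.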

Additional observations from a re-analysis of the deposited data

How the results depend on the processing

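Each alternative was compared for the size of the gene group, its counts of calls and its median log2 ratios, and no median changed sign. With a pseudocount of 58 the group held 257 genes and 1 fell in total RNA after Ph RNAi. With a pseudocount 10 times the main one it held 51, of which 16 rose after Ph and 19 after Pc RNAi in total RNA. At a ratio of 1.5 it held 365, with a median log2 total RNA ratio after Ph RNAi of 0.50 in place of 1.39 and 3 rises after Sce RNAi. At a ratio of 4 it held 42, with 12 rises after Ph and 19 after Pc RNAi, and medians of 3.15 and 2.27. At q under 0.01, 9 genes rose after Ph RNAi and 15 after Pc RNAi in total RNA. At q under 0.1, 54 were higher after Ph RNAi in total RNA, 2 after Sce RNAi in total RNA and 2 after Sce RNAi in nascent RNA. At an unadjusted p under 0.05, 66, 60 and 22 genes were higher in total RNA after Ph, Pc and Sce RNAi, beside 1059, 900 and 707 of all 7624 genes. At that p 1 was lower after Pc and 2 after Sce RNAi, and in nascent RNA after Sce RNAi 34 were higher and 5 lower. The group held 119 genes after the filter on low signal, 108 after quantile scaling, 102 without genes overlapped by other models over 50% or more of their length, and 115 with 1 row a current gene and no pseudogenes, an alternative chosen after seeing the data; the counts of calls stayed within 1.5 times in these 4.

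No paired analysis was possible because the table holds group means and no value per library. For the same reason no replicate was left out, and no spread between libraries is known. The planned motif and protein alternatives were not run. The signal has no depth behind it, so the counting error of low means is unknown.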
